A study of Mus musculus with 8 samples.

Results

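Cadherins are calcium-dependent adhesion proteins whose extracellular repeats bind those of neighbouring cells, and the genes of this family and of its protocadherin relatives were described here in mouse liver tumour cells. Members were the rows whose symbol was Cdh followed by digits, or began with Pcdh, pseudogenes left out. This gave 93 genes of 54838, of which 23 were cadherins and 70 protocadherins. They stood under 92 symbols, as Pcdha11 was listed under 2 identifiers. Classical cadherins hold cell layers together and link through catenins to actin, and in liver Cdh1 and Cdh2 are the classical cadherins of hepatocyte junctions. Protocadherins lack the catenin-binding tail. Their alpha, beta and gamma clusters are best known from neurons, where single cells use different variable exons, each with its own promoter.

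RNA-seq was done on 8 libraries of cultured cells. Both groups derive from 3H3, a line grown out of a liver tumour in a C57BL/6 MC4R-KO mouse on high-fat diet, which carries HrasQ61L. The 3H3P cells (1 library) are its Trp53 knockout, made with CRISPR/Cas9, and all libraries share that knockout. The 3H3PM cells are 3H3P with ectopic MYC, and 7 of their subclones, isolated after tumour growth in nude mice, formed the other group (1, 2, 3, 6, 7, 8 and 9, with 1 library each). The comparison asked how the subclones differed from 3H3P. The introduced MYC, passage through a mouse and the isolation of subclones cannot be told apart. The labels used here state neither the promoter that drove MYC nor whether host cells were removed, and each subclone is a single isolate. Differences are log2 fold changes of the subclones relative to 3H3P.

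Library totals ran from 12838521 to 17987068 expected counts, with 16855985 in the 3H3P library. The counts of Trp53 were 212 CPM (TMM-scaled counts relative to library size) in 3H3P and 53.9 ± 7.45 in the subclones (SD, n = 7), and a frameshift need not remove a transcript. Mouse Myc was at 85.2 CPM in 3H3P and 6.54 ± 3.58 in the subclones, so the counts gave no check of the ectopic MYC, whose species the labels do not state; group names are used as labelled. Of 10 hepatocyte markers, 6 reached 1 TPM (a level per transcript length, scaled to the same total in each library) in 3H3P, led by Trf (725), Ass1 (627), Apob (97.5) and Hnf4a (38.0). Alb was at 2.79 TPM in 3H3P and 0 to 1.71 in the subclones, and Cyp2e1 was at 0 in every library. Of 8 biliary and simple epithelial markers, 6 reached 1 TPM in 3H3P, led by Spp1 (2596) and Krt18 (785), and Epcam was at 0 in every library. Lymphocyte markers summed to at most 0.03 TPM.

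Most members were at or near 0. Of the 93 members, 31 were at 0 in every library, which allows up to 3 counts in each, and 15 reached 1 TPM in any library. Those 15 were Cdh1, Cdh2, Cdh6, Cdh16, Cdh17, Cdh24, Pcdh1, Pcdh7, Pcdh18, Pcdhb16, Pcdhb17, Pcdhgb2, Pcdhgc3, Pcdhgc4 and Pcdhgc5. In all 8 libraries, 5 reached it: Cdh1, Cdh24, Pcdh1, Pcdhgc3 and Pcdhgc4. The 3H3P library held 12 such members and the subclones 6 to 11. Of the 78 members below it, 6 had counts in 3H3P only, 16 in subclones only and 25 in both. Pcdhb16 (highest value 1.6 TPM) and Pcdhb17 (1.71 TPM) lay just inside that level, and Pcdhgb8 (0.96 TPM) and Pcdhga12 (0.91 TPM) just outside.

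**Figure D1:**
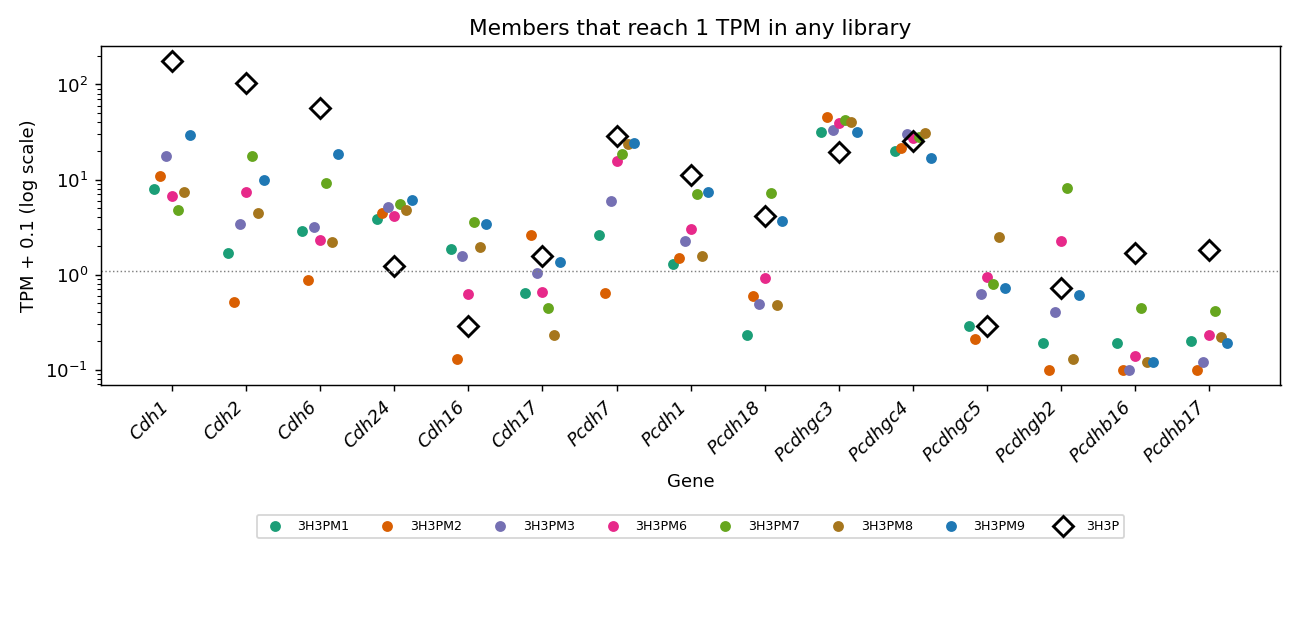
TPM plus 0.1 on a log axis for the 15 members that reached 1 TPM in any library, with the 3H3P library as a diamond and the 7 subclones as points; the dotted line marks 1 TPM. For Cdh1, Cdh2 and Cdh6 the 3H3P library lies above every subclone (175 TPM against at most 29.3 for Cdh1), and for Cdh24 and Pcdhgc3 below every subclone.

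Cdh1 and Cdh2, the type I classical cadherins that were tested (of 5), fell in the subclones, while Cdh24 and Pcdhgc3 rose. Of the 93 members, 24 passed the filter on low counts and were tested, and edgeR's quasi-likelihood test (Benjamini-Hochberg adjusted p under 0.05) called 8 lower and 2 higher, with 14 not called. Over all 14634 genes tested, 11.8% were called lower and 7.33% higher, 19.1% in all. The called members were Cdh1, Cdh2, Cdh6, Pcdhb16, Pcdhb17, Pcdhb19, Pcdhb22 and Pcdhga12 (lower) and Cdh24 and Pcdhgc3 (higher). The filter kept a gene that was high enough in any library. Pcdhb18, Pcdhb19, Pcdhb20 and Pcdhb22 passed it only through the 3H3P library, where they are high, and Cdh16, Pcdhga6, Pcdhga9, Pcdhgb7 and Pcdhgb8 only through subclones. The 3H3P value lay outside the range of the subclones for 15 of the 24, where the background was 57.4% of all genes tested. The median log2 fold change of the 24 was −1.27 (−0.43 without the 4 that passed through 3H3P alone) and that of all genes 0.03. Of the 15 members that passed in both groups, 6 were called lower and 2 higher, with a median of −1.31, against −0.02 for the 12394 such genes.

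**Figure D2:**
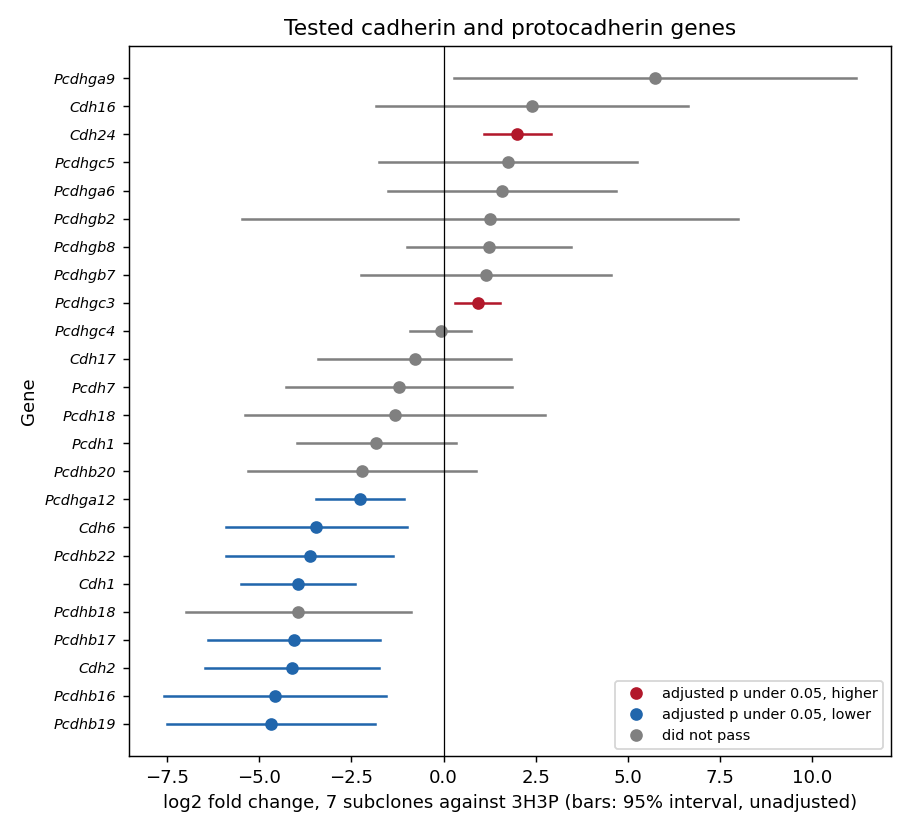
Log2 fold change of the subclones against 3H3P for the 24 members tested, with unadjusted 95% intervals; red and blue mark genes called higher and lower. The called cadherins run from −4.11 (Cdh2) to 2.0 (Cdh24), and the point of Pcdhga9, with 0 counts in 3H3P, depends on the fit's prior count and is no bound.

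Cdh1 encodes E-cadherin, the classical cadherin of epithelial adherens junctions (ENSMUSG00000000303.12, chr8:106603351-106670246, plus strand, GRCm38). It was at 175 TPM in 3H3P, and the subclones ran from 4.63 (subclone 7) through a median of 7.89 to 29.3 (subclone 9). The groups did not overlap, and every subclone lay below 3H3P. By CPM, Cdh1 fell from 527 to 34.3 ± 24.8 (SD, n = 7), a log2 fold change of −3.94 (SE 0.63, edgeR adjusted p = 0.00363). In bulk RNA, fewer cells that express a gene and less RNA per cell cannot be told apart. Cdh3, the neighbouring gene for P-cadherin (chr8:106510891-106557297), had 6 counts in 3H3P and 0 to 4 in the subclones.

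Cdh2 encodes N-cadherin, which hepatocytes, mesenchymal cells and neurons make (chr18:16588877-16809246, minus strand, GRCm38). It was at 102 TPM in 3H3P and from 0.42 (subclone 2) through a median of 4.36 to 17.5 (subclone 7) in the subclones. Again 3H3P lay above every subclone. Cdh2 fell from 301 to 17.5 ± 15.6 CPM (SD, n = 7; log2 fold change −4.11, SE 0.96, edgeR adjusted p = 0.0184), with an adjusted p of 0.00784 to 0.0824 over the alternatives. The call was lost on the log2(TPM + 0.1) scale (limma adjusted p = 0.0824), and limma-voom put the log2 fold change at −4.85.

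E-cadherin and N-cadherin transcripts fell together but in different proportions among the subclones. The ratio of Cdh1 to Cdh2 TPM was 1.71 in 3H3P. It was 4.93, 25.8, 5.31, 0.91, 0.265, 1.65 and 3.00 in subclones 1, 2, 3, 6, 7, 8 and 9. The order ran from subclone 7, where Cdh2 exceeded Cdh1, to subclone 2, which had the lowest Cdh2. With 1 library each, the difference between subclones had no replicate check.

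**Figure D3:**
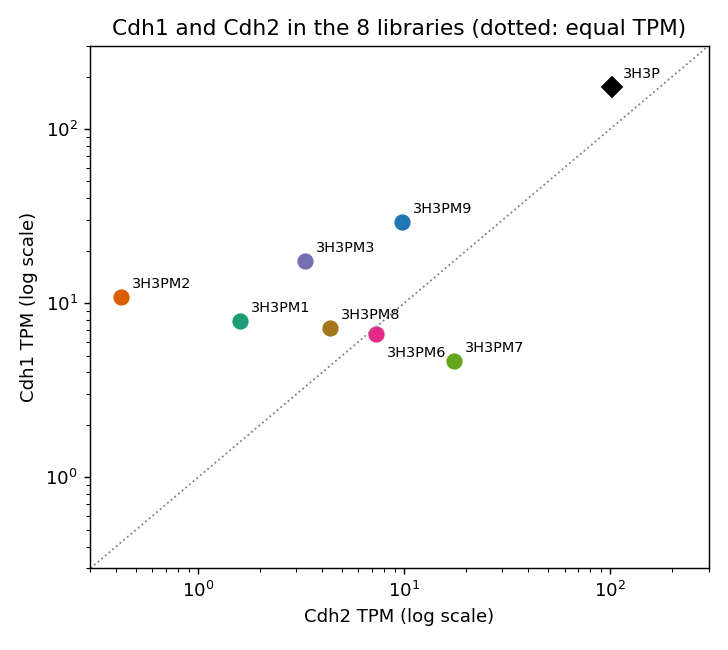
TPM of Cdh1 against Cdh2 in the 8 libraries on log axes; the diamond is 3H3P, the points are subclones and the dotted line marks equal TPM. The 3H3P library stands at the top right, subclones 6 and 7 lie below the line, and subclone 2 lies farthest to the left at 0.42 TPM of Cdh2.

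Among type II cadherins, Cdh6 and Cdh24 moved in opposite directions. Cdh6 encodes K-cadherin, known from kidney (ENSMUSG00000039385.5, chr15:13028701-13173675, minus strand). It was at 56.6 TPM in 3H3P and from 0.77 (subclone 2) through a median of 2.74 to 18.3 (subclone 9). The groups did not overlap. Cdh6 fell from 324 to 29.7 ± 33.6 CPM (SD, n = 7; log2 fold change −3.45, SE 1.01, edgeR adjusted p = 0.0423; 0.00945 to 0.0822 over the alternatives). The call was lost with DESeq2 (adjusted p = 0.0763), on both log2(TPM) scales and on leaving out subclone 1, 3, 6, 7 or 8 (edgeR adjusted p 0.0522 to 0.0763), and without subclone 9 the log2 fold change was −4.16.

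Cdh24 encodes a type II cadherin that binds catenins (ENSMUSG00000059674.7, chr14:54631231-54641364, minus strand). It was at 1.12 TPM in 3H3P and from 3.70 (subclone 1) through a median of 4.66 to 5.92 (subclone 9) in the subclones. Every subclone lay above 3H3P, and the subclones lay close to each other. Cdh24 rose from 2.68 to 10.7 ± 1.69 CPM (SD, n = 7; log2 fold change 2.0, SE 0.37, edgeR adjusted p = 0.0071), and it kept its call under every alternative run. Of the 13 type II cadherins no other was tested: Cdh11, an osteoblast and mesenchymal cadherin, had 2 counts in 3H3P and 3 to 10 in the subclones. Cdh5, the endothelial cadherin, had 1 count in 3H3P and 0 in every subclone.

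The promoter windows of Cdh24 and Cdh6 are shown because these genes were called in opposite directions, and that of Pcdh7 because it holds the E-box searched. They run from 250 bases before to 50 after the start in RefSeq (GRCm38.p6), which held windows for 22 of the 92 member symbols and for 4 of the 15 members at 1 TPM. They are written 5′ to 3′ on the gene's strand, and capitals mark CG dinucleotides and, in Pcdh7, the motif.
Cdh24: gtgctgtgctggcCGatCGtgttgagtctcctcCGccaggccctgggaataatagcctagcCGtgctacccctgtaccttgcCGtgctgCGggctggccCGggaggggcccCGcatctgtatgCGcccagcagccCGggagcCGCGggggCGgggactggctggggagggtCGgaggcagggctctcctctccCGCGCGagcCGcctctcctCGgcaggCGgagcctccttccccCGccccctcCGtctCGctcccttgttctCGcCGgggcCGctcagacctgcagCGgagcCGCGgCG
Cdh6: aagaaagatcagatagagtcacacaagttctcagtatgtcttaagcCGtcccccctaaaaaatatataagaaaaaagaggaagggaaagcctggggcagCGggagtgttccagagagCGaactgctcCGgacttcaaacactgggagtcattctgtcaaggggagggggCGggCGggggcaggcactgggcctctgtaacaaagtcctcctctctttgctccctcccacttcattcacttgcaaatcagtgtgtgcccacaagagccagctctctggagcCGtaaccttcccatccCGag
Pcdh7: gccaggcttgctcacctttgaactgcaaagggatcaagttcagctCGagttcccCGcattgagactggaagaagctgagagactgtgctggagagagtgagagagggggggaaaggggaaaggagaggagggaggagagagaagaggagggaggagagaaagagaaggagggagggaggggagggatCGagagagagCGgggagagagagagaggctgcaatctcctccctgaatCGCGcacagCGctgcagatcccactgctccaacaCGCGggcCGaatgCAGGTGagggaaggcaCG
The first is chr14:54641315-54641614, with 73.3% GC and 30 CG dinucleotides. That of Cdh6 is chr15:13173626-13173925, with 53.0% GC and 8. That of Pcdh7 is chr5:57717831-57718130 on the plus strand, with 59.3% GC and 11. All windows had a median of 52.7% GC and 7 CG dinucleotides, and the members' windows 60.3% and 14. The E-box CACCTG, or CAGGTG on the other strand (these are 1 motif read on both strands), is known to be bound by the Snai and Zeb repressors. It was found in 20.2% of 32851 windows and in 5 of 25 member windows (20%), a share near that of all windows. A match is a description of letters, and a window without it says nothing of other positions.

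The 7D cadherins, whose short tails do not bind catenins, were low. Cdh16, the kidney-specific cadherin (chr8:104601911-104624396), was at 0.19 TPM in 3H3P and from 0.03 (subclone 2) through a median of 1.77 to 3.45 (subclone 7). The groups overlapped, with 6 of 7 subclones higher by CPM (log2 fold change 2.40, edgeR adjusted p = 0.363). Cdh17, the liver-intestine cadherin (chr4:11758147-11817895), was at 1.47 TPM in 3H3P and from 0.13 (subclone 8) through a median of 0.55 to 2.49 (subclone 2). Its log2 fold change was −0.78 (edgeR adjusted p = 0.644). The deposited mean transcript length of Cdh16 ran from 1296 to 2874 bases between libraries, which moves its TPM apart from its counts.

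Non-clustered protocadherins were highest in 3H3P for 2 of the 3 genes at 1 TPM, but none was called. Pcdh7 is a delta-1 protocadherin (chr5:57717967-58133230). It was at 28.7 TPM in 3H3P and at 2.50, 0.54, 5.84, 15.4, 18.7, 23.5 and 24.4 in subclones 1, 2, 3, 6, 7, 8 and 9. All 7 subclones lay below 3H3P, 4 of them at more than 15 TPM and 3 of them under 6. The log2 fold change was −1.22 (95% interval −4.29 to 1.85, edgeR adjusted p = 0.528), so the spread among the subclones was wide beside the difference. Pcdh1, the other delta-1 member at 1 TPM (chr18:38185914-38212053), was at 11.1 TPM in 3H3P and from 1.20 (subclone 1) through a median of 2.17 to 7.36 (subclone 9). It was below 3H3P in 7 of 7 subclones (log2 fold change −1.83, 95% interval −3.99 to 0.33, edgeR adjusted p = 0.179), and limma-voom called it (adjusted p = 0.0482). The deposited length of Pcdh1 ran from 2873 to 4239 bases between libraries, and its lowest CPM was in subclone 2.

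Pcdh18, a delta-2 protocadherin (chr3:49743296-49757325), was at 4.06 TPM in 3H3P. The subclones ran from 0.13 (subclone 1) through a median of 0.50 to 7.18 (subclone 7), and subclone 9 was at 3.53. Subclones 1 and 8 each had 5 counts of Pcdh18, at 0.13 and 0.38 TPM. Its deposited length ran from 1599 to 5168 bases between libraries, which moves its TPM apart from its counts. Subclones 7 and 9 stood above the other subclones, and the groups overlapped (log2 fold change −1.31, edgeR adjusted p = 0.617). Pcdh10, of the same class, had 8 counts in 3H3P and 0 in every subclone, at least 16.8-fold lower against 3 counts over the subclones, and was not tested.

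The clustered protocadherins lie side by side on chromosome 18. Variable exons of the alpha and gamma genes are spliced to constant exons shared within each cluster, while each beta gene is a single exon. In the annotation all 22 gamma genes (27.8% to 66.8% of their exonic bases) and all 14 alpha genes (38.0% to 54.9%) shared bases with another member, against 2 of 22 beta genes. The authors' counting divided reads among genes, and 19 of the 21 members with fractional counts were gamma genes. Values of single gamma genes therefore rest on that division.

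Pcdhgc3, one of the C-type gamma genes (chr18:37806364-37841873), was the highest member by TPM in every subclone. It was at 19.4 TPM in 3H3P and from 31.4 (subclone 9) through a median of 39.1 to 45.5 (subclone 2). The groups did not overlap, and all subclones were higher. Pcdhgc3 rose from 61 to 116 ± 17.6 CPM (SD, n = 7; log2 fold change 0.93, SE 0.25, edgeR adjusted p = 0.0314). The call was lost without subclone 6 (adjusted p = 0.0526), and the value is uncertain because of the shared exons.

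Pcdhgc4 (chr18:37815079-37841873) was at 25.2 TPM in 3H3P and from 16.6 (subclone 9) through a median of 27.5 to 31.1 (subclone 8). Its log2 fold change was −0.08 (95% interval −0.91 to 0.75, edgeR adjusted p = 0.892). The deposited transcript length was 2275 to 2321 bases in every library. That is close to the annotated transcript Pcdhgc4-203, which has 2272 bases, 153 of its own and 2119 shared with other gamma genes. How far reads of the shared exons enter its value was not tested. Pcdhgc5, the third C-type gene (chr18:37819513-37841873), was at 0.19 TPM in 3H3P and from 0.11 through a median of 0.63 to 2.40 (subclone 8), and was not called (log2 fold change 1.74, edgeR adjusted p = 0.426).

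Pcdhgc3 and Pcdhgc4 took 92.7% of the gamma counts in 3H3P and 83.9% to 97.2% in the subclones. The remainder lay with Pcdhgc5 and with different A- and B-type genes in different libraries. Pcdhgc5 held 11.8 counts in 3H3P and 6.12 to 104.2 in the subclones. The highest was subclone 8, where the 19 A- and B-type genes together held 41.4 counts. The percentages that follow are shares of the A- and B-type counts. Pcdhga12 led in 3H3P (51.8 of 113.1 counts, 45.8%) and fell in the subclones from 3.24 to 0.665 ± 0.168 CPM (SD, n = 7; log2 fold change −2.27, SE 0.49, edgeR adjusted p = 0.0129). Pcdhgb2 (chr18:37689828-37841873) led in subclone 7 with 317.3 counts (82.0%) and in subclone 6 with 103.8 counts (51.6%). In subclone 2, which had 0 counts of Pcdhgb2, Pcdhgb8 led with 38.4 counts (51.1%).

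Pcdhgb2 was at 0.62 TPM in 3H3P and at 0.09, 0, 0.30, 2.18, 8.09, 0.03 and 0.51 in subclones 1, 2, 3, 6, 7, 8 and 9. Subclones 6 and 7 stood above the other libraries. Its log2 fold change was 1.25 (95% interval −5.47 to 7.98, edgeR adjusted p = 0.783) and turned to −0.37 without subclone 7. Pcdhga9 had 0 counts in 3H3P and counts in 7 of 7 subclones, at least 2.49-fold higher against 3 counts, and was not called (edgeR adjusted p = 0.103).

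**Figure D4:**
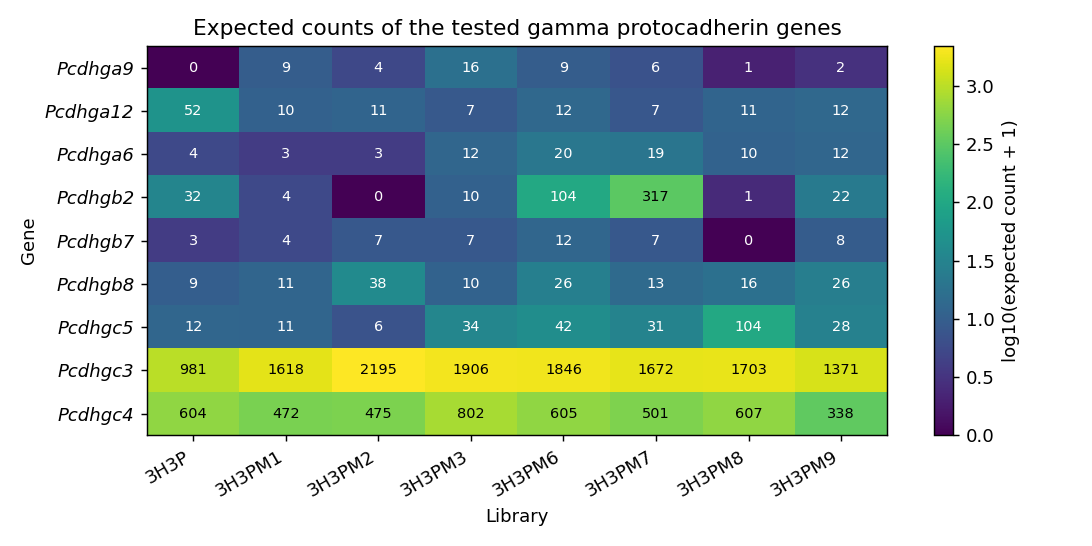
Expected counts of the 9 gamma protocadherin genes tested, by library; colour is log10 of the count plus 1 and the printed number is the rounded count. Pcdhgc3 and Pcdhgc4 are bright in every library, and Pcdhgb2 reaches 317 counts in subclone 7 against 0 in subclone 2.

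The beta cluster was detected mainly in 3H3P. Its 22 genes summed to 284 counts in 3H3P (16.8 CPM without TMM scaling) and 1 to 54 in the subclones (0.064 to 4.21 on the same scale). Of the 6 tested, 4 were called lower, and Pcdhb19 and Pcdhb22 among these had passed the filter only through 3H3P. Pcdhb16 (chr18:37477814-37483038) was at 1.6 TPM in 3H3P and from 0 to 0.34 (subclone 7), with a median of 0.02. It fell from 5.85 to 0.245 ± 0.410 CPM (SD, n = 7; log2 fold change −4.58, SE 1.23, edgeR adjusted p = 0.0316). The call was lost without subclone 6 (adjusted p = 0.0574) or 9 (0.0540), and without subclone 7 the log2 fold change was −5.82.

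Pcdhb17 (chr18:37484795-37489454) was at 1.71 TPM in 3H3P and from 0 through a median of 0.10 to 0.31 (subclone 7) in the subclones. It fell from 5.54 to 0.330 ± 0.300 CPM (SD, n = 7; log2 fold change −4.07, SE 0.95, edgeR adjusted p = 0.0184). The 3H3P library lay above every subclone for both genes. Pcdhb22 had 22 counts in 3H3P and 11 in the subclones together (log2 fold change −3.64, edgeR adjusted p = 0.0256; DESeq2 0.0584). For Pcdhb19, 15 counts in 3H3P stood against 3 in the subclones together, which scaled by library size is a ratio of 31.5 (95% exact binomial interval 8.91 to 169.7; edgeR adjusted p = 0.023). Its log2 fold change of −4.68 was −5.67 without subclone 7. The alpha cluster had 11 counts in 3H3P, 10 of them in Pcdha4, and 0 in the subclones, which puts Pcdha4 at least 21.0-fold lower. Pcdha4 was not tested. In the annotation 91.4% of its exonic bases were shared with other genes on the same strand, so the assignment of these counts is uncertain.

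The make-up of the family differed between the groups. Summed TPM over the members was 434 in 3H3P and 75.6 to 156 (median 114) in the subclones, below 3H3P in 7 of 7. Type I cadherins gave 64.0% of that sum in 3H3P and 9.57% to 25.4% in the subclones. The gamma protocadherins gave 10.8% and 32.9% to 76.1%. Gamma counts relative to library size were also higher in 7 of 7 subclones (128 to 202 CPM without TMM scaling, against 101 in 3H3P).

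**Figure D5:**
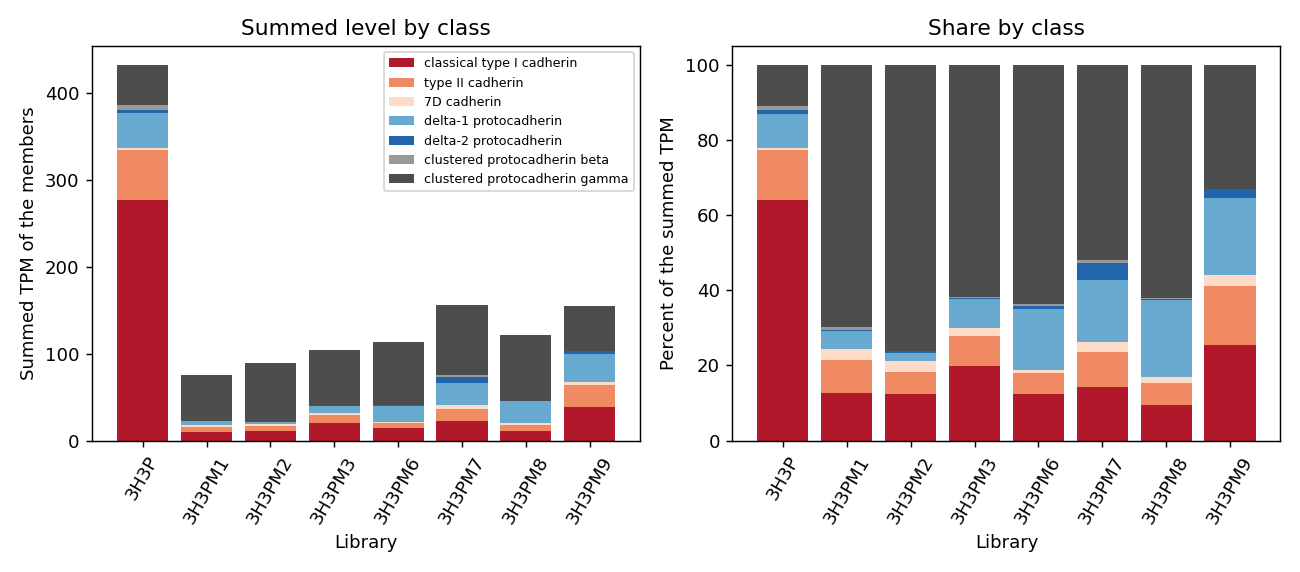
Summed TPM of the members by class (left) and as a percent of the members' sum (right) in each library; classes with at most 0.44 TPM in any library are not drawn. Type I cadherins fill most of the 3H3P bar (64.0%), and gamma protocadherins take 32.9% to 76.1% of the subclone bars.

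The subclones differed widely from each other in many members. The SD of log2 CPM over the 7 subclones exceeded 1 for 9 of the 14 members with a mean of at least 1 CPM over all 8 libraries. Of the 12378 such genes 7.15% exceeded it, and the median SD was 1.25 for the members against 0.285. These genes were not matched to the members for level, and some members had few counts in some subclones (Cdh16, 1 to 65). The SD was largest for Pcdhgb2 (2.76), Pcdh18 (2.16), Pcdh7 (2.03) and Cdh2 (1.71). Cdh24 (0.229) and Pcdhgc3 (0.222), the called risers, varied little. Among the 15 members at 1 TPM, subclone 2 alone had the lowest CPM for 8 (for Pcdhb16 it shared a value of 0), among them Cdh2, Cdh6, Pcdh1 and Pcdh7. Subclone 7 had the highest for 6, among them Cdh2, Cdh16, Pcdh18 and Pcdhgb2, and subclone 9 for Cdh1, Cdh6, Cdh24 and Pcdh1. Each is 1 library, so these orders had no replicate check.

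Markers of hepatocytes and of several other cell types differed between the same groups. The background for their calls was 11.8% lower and 7.33% higher over all genes tested. The 10 hepatocyte markers summed to 1504 TPM in 3H3P and 15.4 to 68.9 in the subclones, and 4 of the 6 tested were called lower. The 8 biliary and simple epithelial markers summed to 4143 and 764 to 1860 TPM, with 3 of 6 called lower. The 4 mesothelial markers summed to 167 and 2.04 to 33.0 TPM, mostly Msln, which was called lower (edgeR adjusted p = 0.029; lost on both log2(TPM) scales and without subclone 3), and the other tested markers, Wt1 and Upk3b, passed the filter only through 3H3P. The 10 endothelial markers summed to 6.46 and 21.9 to 34.5 TPM, mostly Egfl7, which was called higher (4.01 and 20.4 to 33.3 TPM, edgeR adjusted p = 0.0166). The 3 other endothelial markers tested were not called, and Tie1, Emcn and Cldn5 were at 0 in every library. The 7 neural and Schwann markers summed to 24.9 and 6.50 to 41.9 TPM, with none of the 3 tested called and Sox10 at 0 in every library. The 6 skeletal muscle markers summed to at most 0.75 TPM, and none was tested. The 10 fibroblast and stellate markers summed to 106 and 29.6 to 138 TPM, with different leading genes. Pdgfra led in subclones 6 (54.1 TPM) and 8 (92.8 TPM). It was at 0.9 to 5.61 TPM in the other subclones and 0.18 in 3H3P, and was not called (edgeR adjusted p = 0.252). Dcn, for decorin, was at 105.5 TPM in 3H3P and 0 to 0.07 in the subclones (edgeR adjusted p = 4.2e-06), and it passed the filter only through 3H3P. Pdgfrb, a growth factor receptor of fibroblasts and pericytes, was at 0.2 TPM in 3H3P and 26.1 to 40.2 in the subclones (edgeR adjusted p = 6.6e-05), while Lum, Thy1 and Lrat were at 0 in every library. The 8 macrophage markers summed to 366 and 36.5 to 126 TPM, mostly Cd14, which was called lower (358 and 25.4 to 108 TPM, edgeR adjusted p = 0.00617). Ptprc, Adgre1, C1qa and C1qb were at 0 TPM in 3H3P and at most 0.86 in any subclone. Cd68 (3.93 and 2.36 to 10.7 TPM), Csf1r (3.52 and 1.20 to 7.46) and Lyz2 (0.63 and 0 to 5.83) were not called. The part of other cells in the fall of Cdh1, Cdh2 and Cdh6 was not tested.

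The catenins, which tie classical cadherins to actin, fell with them in part. Over all genes tested, 11.8% were called lower and 7.33% higher, which is the background for this list and those below. Of 17 catenin and junction partner genes 14 were tested, 4 fell and 1 rose (median log2 fold change −0.52). Of the 4, Ctnna2 passed the filter only through 3H3P (median −0.46 without it). Ctnnb1, for beta-catenin, fell from 1362 to 634 ± 106 CPM (SD, n = 7; log2 fold change −1.10, SE 0.23, edgeR adjusted p = 0.0111). Ctnna1, for alpha-E-catenin, fell by less (log2 fold change −0.58, edgeR adjusted p = 0.0353; 0.0156 to 0.0702 over the alternatives), and its call was lost with library size alone, with no filter and without subclone 3, 6, 7 or 9. Ctnna2, the neural alpha-catenin, had 24 counts in 3H3P and 0 in every subclone, at least 50.4-fold lower (edgeR adjusted p = 0.0397; lost with DESeq2, 0.123, and without subclone 3, 0.0566). Ctnnal1, an alpha-catenin-like gene, rose from 3.17 to 24.5 ± 10.2 CPM (log2 fold change 2.94, edgeR adjusted p = 0.0136). Jup, for plakoglobin, was also called lower.

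Other cadherin superfamily genes went both ways, with 2 of 10 tested higher and 3 lower (27 listed, median −0.37). One of those lower, Clstn2, passed the filter only through 3H3P, and the median turned to 0.32 without it; Celsr3 and Fat4 passed only through subclones, and over the 7 genes that passed in both groups it was −1.07. Celsr2, a seven-pass adhesion receptor, rose from 5.91 to 45.2 ± 8.54 CPM (SD, n = 7; log2 fold change 2.93, edgeR adjusted p = 0.00103). Fat1, a giant atypical cadherin, fell (log2 fold change −1.07, edgeR adjusted p = 0.0318; lost without subclone 6, 0.0527, and on both log2(TPM) scales, up to 0.115), as did Cdhr1 (−2.51, 0.0271; lost without subclone 3, 0.0502, and on log2(TPM + 0.1), 0.0674). For Clstn2, a calsyntenin, 19 counts in 3H3P stood against 2 in the subclones together, a ratio scaled by library size of 59.8 (95% exact binomial interval 14.4 to 529.9; edgeR adjusted p = 0.0126, 0.0534 without subclone 7).

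Of 19 transcription regulators of classical cadherins 14 were tested, and 4 rose and 1 fell (median 0.52). Snai2 passed the filter only through 3H3P and Twist2 only through subclones, and 3 of the 10 that passed in both groups rose (median 0.48). Snai1, for Snail, which can repress Cdh1, rose from 1.24 to 41.3 ± 11.6 CPM (SD, n = 7; log2 fold change 5.04, edgeR adjusted p = 0.000933). Twist2 rose from 0.311 to 19.2 ± 3.62 CPM (log2 fold change 5.91, edgeR adjusted p = 0.000222). Snai2, for the related Slug, fell from 6.97 to 0.107 ± 0.139 CPM (log2 fold change −5.95, edgeR adjusted p = 0.00396), and Tcf4 rose (1.07, 0.0229). Twist1 and Esrp1 were at 0 in every library. Among genes for cadherin shedding and turnover, Psenen fell from 52.5 to 32.0 ± 1.96 CPM (SD, n = 7; log2 fold change −0.71, edgeR adjusted p = 0.0163). Mmp7 had 16 counts in 3H3P and 0 in the subclones, at least 33.6-fold lower, and was not called (edgeR adjusted p = 0.0543). Mmp7 passed the filter only through 3H3P, where it is high.

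Of 13 chromatin factors known to act at the protocadherin clusters, all tested, 3 rose and 10 were not called by edgeR (median 0.19). Wapl, the cohesin release factor, rose from 174 to 366 ± 38.2 CPM (SD, n = 7; log2 fold change 1.07, edgeR adjusted p = 0.00654). Setdb1, a histone methyltransferase, rose (0.71, edgeR adjusted p = 0.024), as did Pds5b (0.64, 0.0439; lost with no filter and without subclone 2, 3, 6, 7 or 9, with 0.0711 the highest). Stag2 had a log2 fold change of 0.49 (edgeR adjusted p = 0.0935). Of 9 protocadherin effector genes 8 were tested, and only Ptk2b, a relative of focal adhesion kinase, was called, falling from 42.9 to 11 ± 3.89 CPM (log2 fold change −1.97, edgeR adjusted p = 0.0174; 0.0508 with limma on log2(TPM + 0.1)).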

How the data were processed

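The submitters' processing notes name FastQC, STAR, RSEM and DESeq2 with GRCm38 (mm10), while versions and options are not given in the sources used. Per the labels' protocols, TRIzol RNA went into a directional NEBNext kit. Per the file headers, the authors deposited RSEM's expected count per gene, in which reads matching several genes are divided. The TPM deposited by the authors gave levels per length, and the deposited FPKM was not used in any result. Transcript lengths are those of the deposited files, and positions come from GENCODE vM21, which held 92 of the 93 member identifiers.

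Expected counts were rounded and tested with edgeR 4.0.16 (R 4.3.3), using filterByExpr by group, TMM scaling, the quasi-likelihood F test and Benjamini-Hochberg adjustment over all genes tested. The test was also run on simulated counts in which the 3H3P library varied like the subclones. That run could not check whether the real 3H3P library does. All 8 libraries entered the fit, with 6 residual degrees of freedom from the subclones, and 3H3P, a lone library, was taken to vary like them. P-values set the difference between 3H3P and the subclones against the spread between the subclone isolates, and the spread of 3H3P is not known. Standard errors are the log2 fold change divided by the square root of F. Spread over the subclones used log2 CPM with a prior count of 2. Alternatives were DESeq2 1.42.0, limma 3.58.1 (voom, and log2(TPM + 0.1) and log2(TPM + 1)), library size alone, no filter, a stricter filter and leaving out each subclone. Intervals on log2 fold changes use the standard errors of the fit with 6 degrees of freedom, so they carry the spread between subclones. The exact binomial intervals and the floor of 3 counts cover counting error only. Members described were those at 1 TPM or called, and up to 4 genes of smallest p in each pathway list, of which 1 is not reported here; low members and tested gamma genes beside these were added once their values were known. The members, gene lists and tests were chosen with earlier results of these data known.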

Additional observations from a re-analysis of the deposited data

How the results depend on the processing

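Over the whole table, 1072 genes were called higher and 1727 lower, and leaving out a subclone gave 669 (without subclone 3) to 1185 and 1322 to 1800. Members called higher numbered 2, and 1 without subclone 6 (range 1 to 2). Members called lower numbered 8, with 5 under DESeq2 and 6 to 8 on leaving out a subclone. Members at 1 TPM numbered 15 (14 to 15), with 17 at 0.5 TPM and 13 at 2 TPM, and members with an SD above 1 numbered 9 (8 to 9). The log2 fold change of Pcdhgb2 turned to −1.49 with limma-voom, −0.45 on log2(TPM + 0.1) and −0.37 without subclone 7 (−0.37 to 1.49 on leaving out a subclone), and that of Pcdhgc4 to 0.00042 without subclone 9 (−0.14 to 0.00042). For single genes, 528 alternative values kept direction and side of the threshold, 40 lost the call, 13 gained it and 4 changed sign, and the cause was not tested. The median of all genes was 0.16 with DESeq2, 0.10 with library size alone and 0.21 without a filter. At this depth a member at 0 in a library may still hold up to 3 counts there. No paired analysis was possible because 3H3P had 1 library and no replicate number.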
